A study of Homo sapiens with 6 samples.

Results

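RGS5 and 9 other genes of the RGS family (RGS2, RGS3, RGS4, RGS10, RGS12, RGS14, RGS16, RGS17 and RGS19) were described in SH-SY5Y, a human cell line established from a neuroblastoma. RGS5 was selected on its measured level, since it ranked among the most abundant nuclear genes of these libraries, and the other 9 were added as members of its family. All 10 were found among the 60709 genes with values. The labels give 3 control wells with 10 uL of DMSO and 3 wells with Nrf2-peptide-linked fumarate in water and the same DMSO. All were grown in 10% FBS to 80% confluence and lysed after 5 h. The control samples carry the numbers 4, 5 and 6 in the labels, and the count columns with these numbers were used as control replicates 1, 2 and 3. The peptide samples carry the numbers 13, 14 and 15, which head no column, so they were not analysed here and no treatment effect is given. If the columns were renumbered on deposit, the libraries described here may not be the controls. Whether the wells were separate cultures is not stated, so every SD may be partly technical.

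RGS proteins (regulators of G-protein signalling) speed up the hydrolysis of GTP by the alpha subunits of heterotrimeric G proteins and so shorten the signal of a G-protein-coupled receptor. The family is divided by sequence into the R4, R7, R12 and RZ subfamilies. RGS5, RGS4 and RGS16 are small R4 proteins that act on alpha subunits of the Gi and Gq classes. RGS5 is best known from pericytes and vascular smooth muscle, and RGS4 from neurons. These proteins are short-lived: their second residue is a cysteine, which is exposed when the initiator methionine is removed, oxidised in the presence of oxygen, arginylated and then recognised by ubiquitin ligases of the N-degron pathway.

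The coding sequence shows this feature directly. The first 30 coding bases of the principal transcripts (APPRIS tag, GENCODE release 29) are shown for the R4 genes RGS5, RGS4, RGS16 and RGS2, with the second codon in capitals.
RGS5: atgTGCaaaggacttgcagctttgccccac
RGS4: atgTGCaaagggcttgcaggtctgccggct
RGS16: atgTGCcgcaccctggccgccttccccacc
RGS2: atgCAAagtgctatgttcttggctgttcaa
Of 19 RGS genes whose coding starts were compared, these first 3 were the only ones with a cysteine codon in second place in a principal transcript. RGS20 was left out of this comparison. RGS5 and RGS4 had identical bases at 23 of the 30 positions, RGS5 and RGS16 at 18, and RGS5 and RGS2 at 8. The remaining annotated transcripts share these starts or differ from them. Transcript RGS5-202 has the cysteine codon second but differs from the printed start after it. The cysteine codon was second in 4 of 6 transcripts of RGS5 and 3 of 7 of RGS4, and the gene-level counts do not separate them.

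RGS5 (ENSG00000143248.13) had 30068, 34473 and 32475 counts in control replicates 1, 2 and 3. As CPM, counts scaled to a library of 1000000 with the TMM correction for library composition, these were 2812, 3017 and 3667, a mean of 3165 ± 447 (SD, n = 3). Replicate 3 was the highest and replicate 1 the lowest. This placed RGS5 4th among nuclear genes by CPM, the value for which it was chosen. The gene just above it was GNAS, which encodes the stimulatory alpha subunit, with 3183 ± 221 CPM, and the gene just below was the elongation factor EEF2, with 3070 ± 316 CPM. The ranges of all 3 genes overlapped. In replicate 3 RGS5 stood above both, while in replicates 1 and 2 it stood below both. RGS5 took 0.282%, 0.302% and 0.365% of all counts in the 3 libraries.

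Levels of different genes were compared as CPM per kilobase of the longest annotated transcript, since longer transcripts yield more reads. On this scale RGS5 had 480, 515 and 626, a mean of 540 ± 76.2 (SD, n = 3). RGS2, an R4 protein with a preference for Gq, came next with 52.6, 54.7 and 66.9 CPM per kilobase. RGS5 exceeded RGS2 by 9.11-fold, 9.41-fold and 9.35-fold in the 3 libraries with these lengths, so the ratio varied less between libraries than either level. The fold rests on the length: its mean was 9.29, and it was 12.4 with the union of exons, 53.4 with the median transcript, which for RGS5 is short, and 40.2 without division by length. RGS4, the neuronal R4 member, followed with 18.16, 18.85 and 18.04 CPM per kilobase. RGS12, a large scaffold of the R12 subfamily with PDZ and Ras-binding domains, had 17.2, 17.5 and 14.4. RGS16, which shares the cysteine start, had 11.4, 11.9 and 13.9 CPM per kilobase. RGS5 thus stood 29.5 ± 4.54-fold above RGS4 and 43.4 ± 1.47-fold above RGS16 (SD, n = 3). With the median transcript these folds were 68.9 and 438, with the union of exons 32.4 and 37.3, and without division by length 45.8 and 105.

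The remaining members were lower. RGS14, an R12 protein that also binds inactive Gi alpha through a GoLoco motif, had 9.49, 9.42 and 8.84 CPM per kilobase. RGS19 of the RZ subfamily, also called GAIP, had 8.04, 9.56 and 7.59. RGS10, the smallest R12 protein, had 6.04, 5.96 and 4.64 CPM per kilobase, from only 55, 58 and 35 counts. RGS3 had 2.99, 2.76 and 3.08, and RGS17, an RZ protein that acts on Gi and Gz, had 1.59, 1.94 and 2.18 CPM per kilobase. In the order of these 10 genes from RGS5 to RGS17, the ranges of neighbours overlapped for RGS14 and RGS19 only, and these also changed places in replicate 2. The other 8 pairs of neighbours were in the same order in all 3 libraries, although RGS4 exceeded RGS12 by only 1.06 to 1.25-fold.

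The order below RGS5 depended on the length used. With the union of exons RGS16 ranked above RGS12, at 12.4 against 6.57 CPM per kilobase, and RGS19, at 6.59, also ranked above RGS12. With the median transcript length RGS12 came second, ahead of RGS2, at 120 against 102 CPM per kilobase. By CPM alone RGS12 was also second, with 90.3 ± 9.31 CPM against 78.6 ± 10.4 for RGS2 and 69.3 ± 1.65 for RGS4 (SD, n = 3). The ranges of RGS12 and RGS2 overlapped, and in replicate 3 their order was reversed, with 79.6 CPM for RGS12 and 90.6 for RGS2. RGS5 was first under each of these measures. Protein-coding genes that reached 10 counts in each library had a median of 9.74 CPM per kilobase, and 5 of the 10 members exceeded it.

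**Figure D1:**
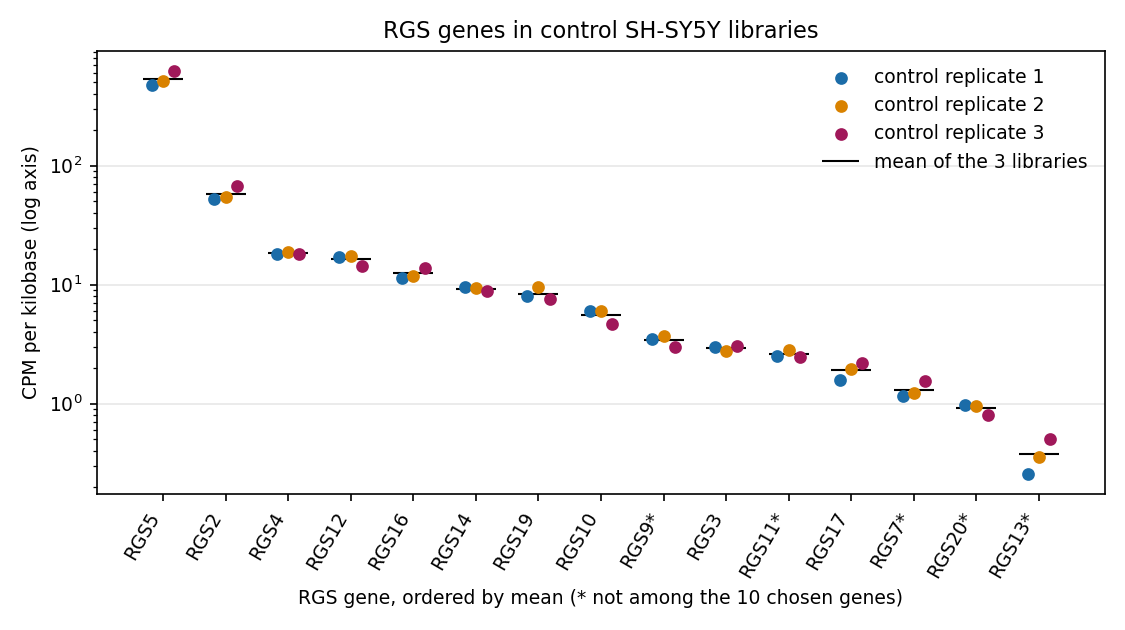
Levels of the 15 RGS genes that reached 10 counts in each of the 3 libraries, as CPM per kilobase of the longest transcript on a log axis. Points are the 3 control replicates and bars their mean. RGS5 sits at 480 to 626 and the next gene, RGS2, at 52.6 to 66.9.

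Of the 20 canonical RGS genes, 15 reached a minimum of 10 counts in each library: the 10 members and RGS7, RGS9, RGS11, RGS13 and RGS20. Over all genes with values, 22.9% passed the same minimum, and over protein-coding nuclear genes 62.3% did. The members include the gene picked for its abundance, so their count is a description only. RGS1, RGS6, RGS18 and RGS21 had 0 counts throughout. In the shallowest library, replicate 3, a count of 0 leaves room for a level of 0.339 CPM. RGS8 had a single count, in replicate 3. RGS13 had 14, 21 and 23 counts, and its coefficient of variation (SD over mean) of 33.8% stood beside a counting error of 23.1% per library.

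RGS5 made up most of the family signal, a description only, since it was chosen for its high level. It held 77.9%, 78.4% and 80.9% of the summed CPM per kilobase of the 20 genes, a mean of 79.1 ± 1.59% (SD, n = 3). The R4 subfamily summed to 632 ± 85.2 CPM per kilobase with RGS5 and 92.2 ± 9.05 without it. R12 summed to 31.2 ± 2.82, RZ to 11.2 ± 1.08 and R7 to 7.31 ± 0.420 CPM per kilobase. R7 proteins need the beta subunit GNB5 to be stable. Its level was 3.13 ± 0.354 CPM per kilobase, against 3.40 ± 0.384 for RGS9, 2.59 ± 0.209 for RGS11 and 1.31 ± 0.202 for RGS7. The ratio of GNB5 to RGS9 was 0.922 ± 0.0106 with these lengths and 0.803 with the longest protein-coding transcript. It was 1.58 with the union of exons, 6.67 with the median transcript and 3.0 without division by length. GPR158, an orphan receptor that binds RGS7, had 14, 17 and 21 counts, and RGS9BP, an anchor of RGS9, had 2, 4 and 1. RGS7BP, which anchors R7 proteins at the membrane in neurons, had 0 counts in every library.

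Of the 20 genes, 10 lie on chromosome 1, 4 of them members, in positions given on GRCh38 from GENCODE release 29. RGS4 (chr1:163068775-163076802, plus strand) and RGS5 (chr1:163111121-163321791, minus strand) are neighbours, with 34318 bases between their annotated ends. Of these neighbours RGS5 was the higher under every length tried, by 25.9 to 68.9-fold. RGS16 (chr1:182598623-182604408) and RGS8 (chr1:182641816-182684576) form another pair, of which RGS16 was measured at 12.4 ± 1.32 CPM per kilobase and RGS8 was near 0. In the third group, RGS18, RGS21 and RGS1 were at 0, RGS13 reached 0.374 ± 0.127 CPM per kilobase, and RGS2 (chr1:192809039-192812283) reached 58.1 ± 7.71. Adjacent RGS genes were thus detected and undetected side by side.

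**Figure D2:**
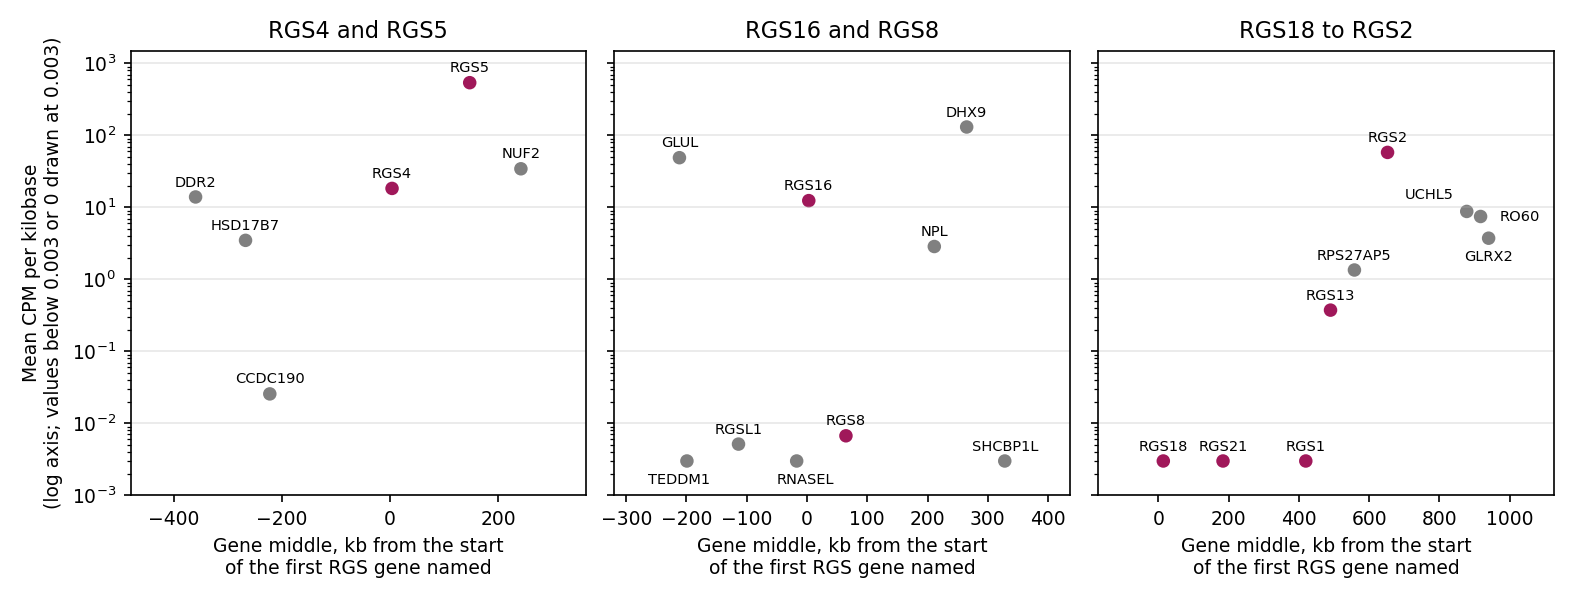
Mean level of RGS genes (purple) and the other protein-coding genes (grey) around 3 RGS groups on chromosome 1, against distance from the start of the first RGS gene named in each panel, in kilobases, with flanks of 300 kb. The vertical axis is CPM per kilobase on a log scale, with values of 0 drawn at 0.003. RGS5 is the highest gene of its panel at 540 and RGS2 of its panel at 58.1.

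The RGS5 locus also holds transcripts that counting could confuse. RGS5-AS1, an antisense RNA inside the gene, had 23, 19 and 17 counts, so RGS5 had at least 1307 times as many in each library. A further gene (ENSG00000232995.7), which GENCODE also names RGS5 and which overlaps it on the same strand, had 8, 3 and 10 counts. NUF2, which encodes a kinetochore protein, overlaps RGS5 on the opposite strand over 55216 bases and had 628, 771 and 681 counts. The library kit keeps strand, but whether the counting used it is not given in the sources used here. Without strand, reads from exons of RGS5-AS1 or NUF2 that overlap RGS5 exons cannot be told apart. For the further gene on the RGS5 strand, strand does not separate such reads either. All 3 of these other genes were singled out with their values already known.

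RefSeq places 2 starts of RGS5 far apart, and their promoters differ in composition. Each window holds 250 bases before and 50 after the start, on the minus strand of GRCh38.p14, with CG dinucleotides in capitals. They are shown because RGS5 is the member on which the results turn, although gene-level counts do not tell which start was used. The first is the distal window, chr1:163321686-163321985, and the second the proximal window, chr1:163202867-163203166.
RGS5 distal: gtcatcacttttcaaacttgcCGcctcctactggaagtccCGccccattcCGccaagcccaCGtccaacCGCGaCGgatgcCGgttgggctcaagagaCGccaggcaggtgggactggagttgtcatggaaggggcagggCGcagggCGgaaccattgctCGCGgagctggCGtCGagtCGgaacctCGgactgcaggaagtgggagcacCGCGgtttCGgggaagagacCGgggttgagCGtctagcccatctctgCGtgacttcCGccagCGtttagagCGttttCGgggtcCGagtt
RGS5 proximal: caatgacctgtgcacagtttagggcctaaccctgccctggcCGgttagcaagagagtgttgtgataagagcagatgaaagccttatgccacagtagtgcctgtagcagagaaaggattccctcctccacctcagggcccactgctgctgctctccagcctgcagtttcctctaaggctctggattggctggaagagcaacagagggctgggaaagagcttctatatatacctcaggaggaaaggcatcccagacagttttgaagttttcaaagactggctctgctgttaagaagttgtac
The distal window holds 28 CG dinucleotides and the proximal window 1. Among 35116 promoter windows of the same length the median was 14, and 4.0% held none. The proximal window also contains the motif TATATA, searched on both strands and held by 4.0% of all windows. TATAAA, held by 11.5% of all windows, is in neither. The single RefSeq windows of RGS2 and RGS16 held 32 and 26 CG dinucleotides, and the 4 windows of RGS4 between 2 and 8. Windows were found for 18 of the 20 genes.

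Members varied between the control libraries by more than their counting error in some cases and not in others. The coefficient of variation ran from 2.38% for RGS4 to 15.6% for RGS17, with a median of 11.5% over the 10 members. For RGS5 it was 14.1% against a counting error of 0.557% per library. The 16 nuclear genes within 2-fold of RGS5 in count had a median of 2.94%. For RGS2 it was 13.3%, against a counting error of 3.53% and a median of 6.70% over 4799 genes of like count. For RGS10 it was 14.2%, about the size of its counting error of 14.5%. The common biological coefficient of variation over all genes, from edgeR, was 7.82%. It was 3.88% without replicate 3 and 10.53% without replicate 2.

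Replicate 3 carried most of the median spread, though not that of every member. The median coefficient over the members was 2.96% without replicate 3, against 12.2% without replicate 1 and 13.2% without replicate 2. Relative to the mean of replicates 1 and 2 on the log2 scale, 5 members were higher in replicate 3 and 5 lower. RGS5 differed by 0.33, RGS2 by 0.32, RGS17 by 0.31, RGS16 by 0.25 and RGS3 by 0.10. RGS10 differed by -0.36, RGS12 by -0.26, RGS19 by -0.21, RGS14 by -0.10 and RGS4 by -0.04. The median over members was 0.03, and -0.01 over 10290 nuclear genes. Replicate 2 minus replicate 1 was larger in size than the replicate 3 difference for RGS19 (0.248), RGS3 (-0.115) and RGS4 (0.054). Replicate 3 also had the fewest counts and the largest share of mitochondrially encoded transcripts, 6.25% against 4.11% and 3.83%, and the part of these in the differences was not tested.

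GC content moved with these differences. Across the same 10290 genes, Spearman's rank correlation between the replicate 3 difference and transcript GC was -0.73, and across the 10 members it was -0.58. Both are correlations across genes of the same 3 libraries, which share depth and preparation. RGS17 and RGS5, with 32.3% and 36.6% GC, were among the highest, and RGS19, with 62.3% GC, was low. When the median GC trend of each library was removed, the RGS5 difference went from 0.33 to 0.08 and its coefficient of variation from 14.1% to 3.60%. RGS17 went from 0.31 to 0.01 and RGS19 from -0.21 to -0.001. The coefficient of variation fell from 15.6% to 4.02% for RGS17, but only from 12.3% to 10.7% for RGS19. The SD of RGS5 fell from 447 to 113 CPM.

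Some other members did not follow the trend, and RGS2 and RGS12 followed it only in part. RGS16, with 53.4% GC, was higher in replicate 3 by 0.25 before and 0.37 after its removal. Genes within 2-fold of RGS16 in count and within 2 percentage points of GC had a median of -0.09. RGS10, with 44.4% GC, differed by -0.36 before and -0.41 after, from 35 counts in that library. RGS4, at 39.7% GC, went from -0.04 to -0.20 while 931 genes of like count and GC had a median of 0.16 before removal. RGS2 kept 0.19 of its 0.32 and RGS12 kept -0.128 of its -0.265. Their coefficients of variation fell from 13.3% to 7.92% and from 10.3% to 5.68%. The coefficient of variation was lower after removal for 5 of the 10 members and higher for the other 5, and the median over members went from 11.5% to 7.81%.

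**Figure D3:**
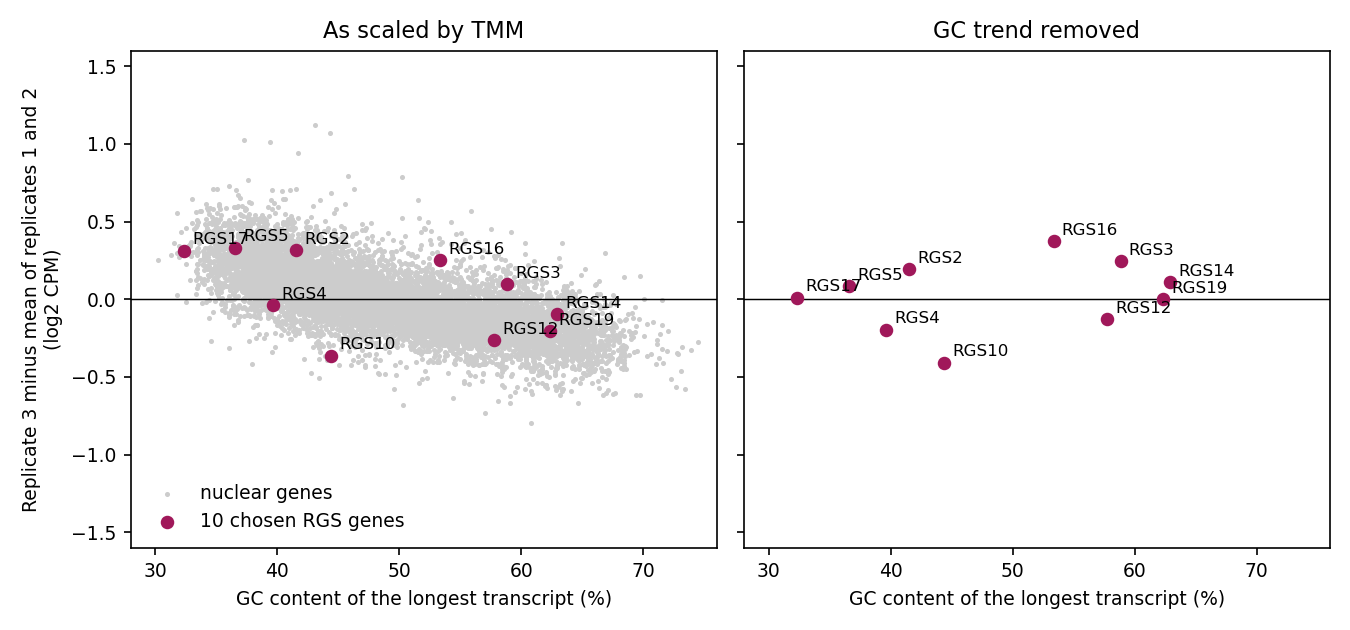
Difference of control replicate 3 from the mean of replicates 1 and 2, in log2 CPM, against GC content of the longest transcript in percent, before (left) and after (right) removal of the GC trend. Grey points, in the left panel only, are 10290 nuclear genes and purple points the 10 members. RGS5 moves from 0.33 to 0.08, while RGS16 moves from 0.25 to 0.37.

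The partners of RGS proteins were measured in the same libraries. Over protein-coding nuclear genes, 62.3% reached the minimum of 10 counts, the share to set beside each list count below. Of 16 G alpha genes, 11 reached the minimum of 10 counts. GNAS was the highest at 790 ± 54.8 CPM per kilobase (SD, n = 3), but Gs alpha is not a usual substrate of the canonical RGS proteins. The ratio of RGS5 to GNAS per kilobase was 0.569, 0.649 and 0.853 in replicates 1, 2 and 3. Its mean of 0.690 turned to 1.96 with the union of exons and 1.29 with the median transcript, so which of them is higher depends on the length. Among substrates, GNAI2, the main Gi alpha in many cells, had 55.3 ± 2.27 CPM per kilobase, while of the Gq class GNA11 had 25.9 ± 2.80 and GNAQ 14.3 ± 0.844. Others of the Gi class were GNAO1 with 13.8 ± 0.916, GNAZ with 10.7 ± 0.875, GNAI3 with 5.15 ± 0.526 and GNAI1 with 4.98 ± 0.463. Without division by length GNAI3 had 140 ± 14.3 CPM, against 215 ± 8.82 for GNAI2, 107 ± 11.6 for GNA11 and 93.8 ± 5.52 for GNAQ. Folds were taken for GNAI2, GNA11 and GNAQ only. RGS5 exceeded GNAI2 by 9.80 ± 1.66-fold, GNA11 by 21.2 ± 5.18-fold and GNAQ by 37.5 ± 3.04-fold. Under the other lengths these folds ran from 6.22 to 54.2 for GNAI2, from 21.2 to 37.9 for GNA11 and from 32.7 to 206 for GNAQ. GNA12 came next after GNAI2 in the list, with 40.0 ± 2.30 CPM per kilobase. GNAT3, the taste alpha subunit, had 0 counts. GNA11, GNAQ, GNAO1, GNAZ, GNAI3 and GNAI1 were singled out with their values known.

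Among beta and gamma subunits, 13 of 17 genes passed the minimum. The highest were GNB1 with 283 ± 6.64, GNG8 with 254 ± 18.7 and GNB2 with 202 ± 12.9 CPM per kilobase. The place of GNG8 rests on its short annotated length. Without division by length GNG8 had 54.8 ± 4.04 CPM, against 379 ± 24.2 for GNB2 and 281 ± 17.6 for GNG11. RGS5 was above GNB1 in every library, by 1.65-fold, 1.84-fold and 2.26-fold, and by 3.36-fold on average with the union of exons and 6.83-fold with the median transcript. GNGT2, a gamma subunit of cone photoreceptors, had 0 counts.

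Transcripts of receptor kinases, arrestins, G alpha regulators and other RGS-domain proteins were lower per kilobase than RGS5. That order is a description, since RGS5 was chosen for its high level. Among receptor kinases and arrestins, which desensitise receptors, 7 of 9 genes passed, led by GRK6 with 26.3 ± 2.698, GRK2 with 22.9 ± 1.24 and ARRB2 with 20.2 ± 1.34 CPM per kilobase. Of the exchange and dissociation regulators of G alpha, 7 of 9 passed, led by the chaperone RIC8A with 42.4 ± 3.75, then GPSM1 with 16.6 ± 1.88 and CCDC88A with 7.69 ± 0.436. A list of 9 other proteins with an RGS-like domain, which is not complete, was also read, and all 9 passed. ARHGEF11, ARHGEF1 and ARHGEF12 led with 36.1 ± 2.93, 31.3 ± 4.16 and 29.6 ± 0.631 CPM per kilobase. RGSL1, outside this list and named after its values were seen, had 0, 1 and 0 counts.

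Effectors were measured for both substrate classes. All 7 Gq effector genes passed, led by the phospholipase PLCB3 with 19.7 ± 1.93, the inositol trisphosphate receptor ITPR1 with 13.1 ± 1.32 and PLCB4 with 9.21 ± 0.418 CPM per kilobase. Of 13 adenylyl cyclase and GIRK channel genes 7 passed. The cyclases ADCY6, ADCY1 and ADCY3 led with 23.2 ± 1.24, 15.3 ± 1.49 and 8.78 ± 0.532. KCNJ6, a GIRK channel subunit, had 0 counts.

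All 7 genes of the cysteine N-degron pathway passed the minimum. METAP2 and METAP1, which remove the initiator methionine, had 39.1 ± 2.73 and 29.8 ± 1.05 CPM per kilobase, and the ubiquitin ligase UBR4 had 34.9 ± 3.39. ADO, the dioxygenase that oxidises the exposed cysteine, had 17.4 ± 1.95, and ATE1, the arginyl transferase, had 11.1 ± 0.124. UBR2 and UBR1, the ligases for arginylated ends, had 10.4 ± 0.197 and 8.99 ± 0.404. ADO, ATE1, UBR1 and UBR2 were named after their values were seen. Protein amounts were not measured, so the levels of RGS5, RGS4 and RGS16 proteins are unknown.

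**Figure D4:**
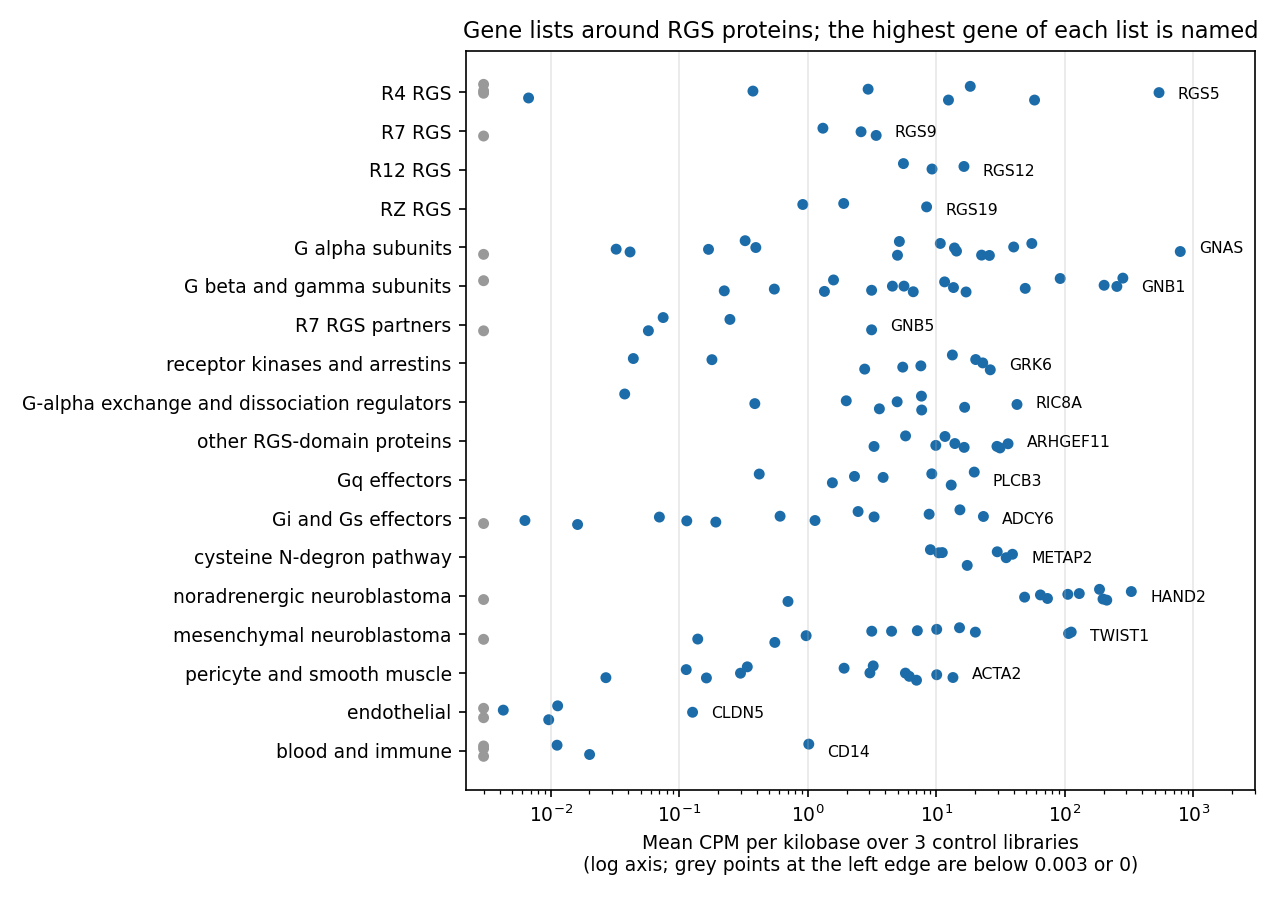
Mean level of each gene in the lists around RGS proteins and in the cell type marker lists, as CPM per kilobase on a log axis over the 3 control libraries, with the highest gene of each list named. Grey points at the left edge are below 0.003 or 0. With these longest-transcript lengths RGS5 at 540 lies above every gene drawn except GNAS at 790.

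The labelled cell type was checked on marker genes. Over protein-coding nuclear genes, 62.3% passed the minimum. In the noradrenergic neuroblastoma list, 10 of 11 markers passed the minimum, led by HAND2 with 329 ± 15.9, DBH with 212 ± 23.9 and CHGB with 198 ± 12.2 CPM per kilobase, and the summed level was 3447 to 3920 CPM. TH, tyrosine hydroxylase, had 0 counts in every library. In the mesenchymal neuroblastoma list 10 of 12 passed, with a summed 983 to 1011 CPM. Its highest genes were TWIST1 with a mean of 112, VIM with 107 and FN1 with 20.1 CPM per kilobase, and PRRX1 was at 0. NOTCH3 is in both this list and the pericyte list. The summed levels are not divided by length, and the lists differ in size.

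Because RGS5 is known as a marker of pericytes, a list of pericyte and smooth muscle genes was also read. Of its 13 genes 9 passed the minimum, beside 62.3% of protein-coding nuclear genes. RGS5 alone had 2812 to 3667 CPM, the value for which it was chosen. Without division by length, the 13 genes summed to 211 to 229 CPM. The highest were ACTA2 with 13.5 ± 2.57, NOTCH3 with 10.1 ± 1.20 and MCAM with 7.01 ± 0.537 CPM per kilobase. PDGFRB, the receptor that defines pericytes with RGS5 in many tissues, had 361, 344 and 307 counts, and KCNJ8 had 147, 161 and 144. TAGLN had 118, 129 and 85 counts, CD248 had 87, 95 and 61, and ANPEP had 87, 80 and 53. Lower were CSPG4 with 37, 30 and 12, MYH11 with 15, 12 and 8, and ABCC9 with 10, 6 and 12. HIGD1B had 1, 5 and 1, and DES had 1, 1 and 0. None of the 13 was at 0 in all libraries, and their part in the RGS5 level was not tested. In RNA from whole wells, a few cells rich in RGS5 and many cells with less cannot be told apart. Of 6 endothelial markers none passed. CLDN5 had 3, 4 and 3 counts, VWF 2, 0 and 1, and KDR 0, 2 and 0, CDH5 and TEK were at 0, and the list summed to 0.452 to 0.613 CPM. Of 6 blood and immune markers only CD14 passed, with 25, 21 and 14 counts, while CD68 had 1 count in all, PTPRC had 1, 1 and 0, and LYZ, CD3E and HBA1 were at 0. PDGFRB, CSPG4, ABCC9 and the other pericyte genes below the 3 highest were named after their values were seen.

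The genes most like RGS5 outside the lists were found by Euclidean distance in log2(CPM + 1) over the 3 control libraries. They were HSPA8 at 0.277, HSP90AA1 at 0.431, ARHGAP36 at 0.4325, MT-CYB at 0.444 and EEF2 at 0.5003. HSPA8 and HSP90AA1 encode cytosolic chaperones, ARHGAP36 is an inhibitor of protein kinase A, and MT-CYB is encoded by mitochondrial DNA. With 3 libraries this distance mainly reflects a like level. In replicate 3 the nearest gene, HSPA8, differed by 0.03, HSP90AA1 by 0.14 and MT-CYB by 0.72, against 0.33 for RGS5 (log2). EEF2 differed by -0.26 and ARHGAP36 by -0.03.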

How the data were processed

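The deposited table holds the authors' raw counts per Ensembl gene, judged by its whole numbers and differing totals. Per the submitters' processing notes, fastp 0.21.1, STAR 2.7.7a, featureCounts and the build GRCh38 were used. The annotation release, the strand setting and the treatment of reads matching several genes are not given in the sources used here. Columns were matched to samples by number, and 3 columns with no matching sample were not used. Of 60710 genes listed, 1 has no value in the columns used, and 60480 were matched to a symbol.

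Totals were 10683037, 11397407 and 8887854 counts. CPM was computed with TMM in edgeR (version 4.0.16, on R 4.3.3). Length and GC come from the longest GENCODE 29 transcript, and the authors may have counted on another release. The GC trend was the median deviation in 50 bins, over nuclear genes averaging 100 counts or more and never below 10. Log2 differences used 0.5 added counts. The GC trend removal and edgeR's common variation were tested on simulated counts. Limits for a count of 0 use 3 counts and cover counting error only. With 1 group there was no test. The members and gene lists were chosen with earlier results of these data known. Genes were named by a rule: all RGS genes, the 3 highest per kilobase in each list, those at 0 in every library, and the 5 nearest to RGS5. The alternatives changed the scaling (RLE, or no factor), left out mitochondrial genes or 1 library, removed the GC trend, or used other lengths and minimums. Other software was Python 3.11.15 with scipy 1.17.1, pandas 2.3.3 and numpy 2.4.6.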

Additional observations from a re-analysis of the deposited data

How the results depend on the processing

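The RGS5 level, 3165 CPM over 3 libraries, ranged from 2914 to 3342 CPM with 1 library left out and was 3667 CPM in replicate 3 alone. The RGS5 share of the family, 79.1% per kilobase, was 93.2% with the median transcript length, 82.8% with the union of exons and 89.6% without division by length. The exon union, the longest protein-coding transcript, the other lengths for ratios between genes, and replicate 3 alone were chosen after seeing the data. Scaling leaves a share within a library unchanged by construction. The median coefficient of variation of the members, 11.5%, ranged from 2.96% to 13.2% with 1 library left out, the lowest without replicate 3. The count of 15 RGS genes was the same at every minimum tried and without each library. Of 36 levels of the other 9 members under the 4 settings that keep all libraries, 2 moved by more than 1 SD, those of RGS4 and RGS14, because leaving out mitochondrial genes raises every level by 4.97%. No paired analysis was possible because no column could be assigned to a peptide sample. Depth limits RGS10, RGS13, RGS20 and RGS7 most, with 14 to 58 counts per library.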
